A study of Mus musculus with 5 samples.

Results

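The genes described here were 8 ligands of the tumor necrosis factor superfamily that immune cells use, with 2 receptors. The ligands were Tnf, Lta, Ltb, Tnfsf8, Tnfsf10, Tnfsf12, Tnfsf13b and Cd40lg, and the receptors were Cd40 and Tnfrsf1b. They were taken by symbol from the 32285 genes listed in every library, and all 10 had UMIs (unique molecular identifiers, each marking 1 captured RNA molecule) in the cells kept. Single-cell RNA sequencing had been run on kidneys of male wild-type mice of the C57BL/6 strain, 8 to 10 weeks old. Aristolochic acid I (AAI), a plant nephrotoxin, was given over 2 weeks by intraperitoneal injections of 3 mg/kg spaced 3 days apart, which gave the acute kidney injury (AKI) group. A further 2 weeks of rest without AAI gave the chronic kidney disease (CKD) group. There were 2 AKI libraries, 2 CKD libraries and 1 vehicle control library, so values in the control had no replicate, and the labels did not say whether the libraries of a group came from separate mice. The p-values below therefore measure only the spread between libraries.

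Members of this superfamily act as trimers, most of them made at the cell surface, from which some, such as TNF, are shed by the protease ADAM17. Each binds 1 or a few receptors of the matching receptor family, which signal through TRAF adaptors to NF-kappaB or, where they carry a death domain, to caspase-8. In injured kidney they are known as signals that pass between T cells, macrophages, dendritic cells (DC), endothelium and tubules, among them TNF, lymphotoxin, TRAIL (Tnfsf10), TWEAK (Tnfsf12), BAFF (Tnfsf13b) and the CD40 ligand.

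Tnf, Lta and Ltb lie beside each other on chromosome 17, where RefSeq on GRCm38.p6 places Ltb at chr17:35194507-35196305, Tnf at chr17:35199367-35202007 and Lta at chr17:35203165-35205578. Ltb is read from the plus strand and the other 2 from the minus strand. Their promoters are shown because Tnf, by its median level, was highest in macrophages, while its neighbours Lta and Ltb both lay with T cells. Each line gives the 250 bases before the transcript start on the gene's own strand, 5′ to 3′, from RefSeq (chr17:35194257-35194506 for Ltb, chr17:35202008-35202257 for Tnf and chr17:35205352-35205601 for Lta). Capitals mark GGAAA on either strand (TTTCC on the strand shown), the core bound by NFAT factors, and in Ltb also the match to an NF-kappaB motif that overlaps it (GGG, any 2 bases and TTTCC, here read from the minus strand).
Ltb: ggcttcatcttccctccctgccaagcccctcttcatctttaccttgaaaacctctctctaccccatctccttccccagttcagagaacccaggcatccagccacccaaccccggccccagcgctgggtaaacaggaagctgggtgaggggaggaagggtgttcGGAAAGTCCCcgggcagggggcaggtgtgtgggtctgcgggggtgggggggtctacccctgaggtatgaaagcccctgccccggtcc
Tnf: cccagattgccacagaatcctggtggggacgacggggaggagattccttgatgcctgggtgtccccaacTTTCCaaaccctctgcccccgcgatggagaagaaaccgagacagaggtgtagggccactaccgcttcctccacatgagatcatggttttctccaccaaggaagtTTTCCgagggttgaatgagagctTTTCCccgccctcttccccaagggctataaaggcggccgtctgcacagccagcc
Lta: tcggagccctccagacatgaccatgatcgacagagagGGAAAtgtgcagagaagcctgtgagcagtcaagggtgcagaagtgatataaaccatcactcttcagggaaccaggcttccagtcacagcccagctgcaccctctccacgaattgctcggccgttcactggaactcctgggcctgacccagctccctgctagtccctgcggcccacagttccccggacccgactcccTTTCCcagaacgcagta
The Tnf window held 3 copies of GGAAA, which began at -181, -77 and -54 from the transcript start, the Lta window held 2 and the Ltb window held 1. Promoters in the table covered 7 of the 10 genes in 8 windows, and GGAAA was found in 7 of these 8 windows and in 55.6% of all 32851 promoter windows of that length. The NF-kappaB motif was found in the Ltb window alone among the 8, from -87 to -78, and in 1.41% of all windows. A looser form, GGG and CC with any 5 bases between, was in 4 of the 8 (Tnf, Lta, Ltb and Tnfrsf1b) and in 45.8% of all. The motif GAGGAAG, bound by PU.1 and related ETS factors, was in 3 of the 8 windows (Tnf, Ltb and Tnfrsf1b) and in 10.6% of all. TGACTCA, the AP-1 motif, was in 1 of them (Tnfsf13b) and in 4.46% of all. All motifs were searched on both strands, and a match describes the letters only.

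The 3′ untranslated region of Tnf is shown for its AU-rich elements, the sites at which proteins such as ZFP36 start the decay of the message. On GRCm39, chr17:35418657-35418686 (minus strand) begins at base 435 after the stop codon, and its 30 bases hold 4 overlapping copies of TTATTTATT, in capitals.
Tnf 3′ UTR: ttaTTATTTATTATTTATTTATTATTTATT
The whole region of 764 bases held 5 copies. Lta, Tnfsf13b and Cd40lg held 1 copy each and the other 6 genes none, against a copy in 8.51% of 20348 genes with a 3′ untranslated region in the annotation.

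After filters on genes per cell and mitochondrial UMIs and the removal of likely doublets, 53718 of 72896 barcodes were kept, between 8496 and 16330 in a library, with median depths of 2849 to 5544 UMIs. Cells fell into 54 clusters, which were named "-like" from marker genes and grouped into classes, with the 10 genes left out of the clustering. Cells over the mitochondrial limit made up 38.7% of barcodes in the control and 11.1% to 12.7% in the other libraries. The control and CKD 2 libraries shared 116 barcodes, and in 86 of these the control cell was over 20 times shallower than its partner. Every other pair of libraries shared 15 to 49. T-like cells numbered 1189 in the control and 5048 to 5862 in each AKI and CKD library, and macrophage-like cells numbered 917, 933, 1266, 2495 and 805 in the control, AKI 1, AKI 2, CKD 1 and CKD 2. Lists of 5 values below keep that order. Levels are the UMIs of a gene per 10000 UMIs of all genes in the class, which allows a comparison of 1 gene between classes and not of different genes.

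The leading class differed among the genes. By the median over the libraries with at least 20 cells of a class, Tnf was highest in macrophage-like cells, although in both CKD libraries CD4 T-like cells lay above them (2.08 against 1.89 and 1.87 against 1.5 per 10000). Lta, Tnfsf8 and Cd40lg were highest in CD4 T-like cells. Ltb was highest in Treg-like cells (regulatory T cells), Tnfsf10 in endothelial (EC)-like cells, Tnfsf12 and Tnfsf13b in stromal cells, Cd40 in mature DC-like cells and Tnfrsf1b in neutrophil-like cells. Of these 10 leads, those of Tnfsf10 and Cd40 had a range over the libraries apart from that of the next class. For the other 8 the ranges overlapped, although within each library CD4 T-like cells lay above the next class for Tnfsf8 (cycling T-like) and Cd40lg (gamma delta T, gdT-like), as neutrophil-like cells did over Treg-like cells for Tnfrsf1b. The stromal class was named from markers of pericytes or fibroblasts, Col1a1, Col3a1, Pdgfrb, Acta2 and Dcn. It held 420 cells of a cluster led by Ren1, Rgs5, Acta2 and Myh11, genes of renin, smooth muscle and pericyte cells. Another 238 cells came from a cluster led by the collagen genes Col3a1 and Col1a2 with Dcn, so most of its cells lay outside the collagen-led cluster. The neutrophil-like class rested on 26 to 67 cells in a library. A median over the AKI and CKD libraries alone gave the same leading class for all 10 genes.

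**Figure D1:**
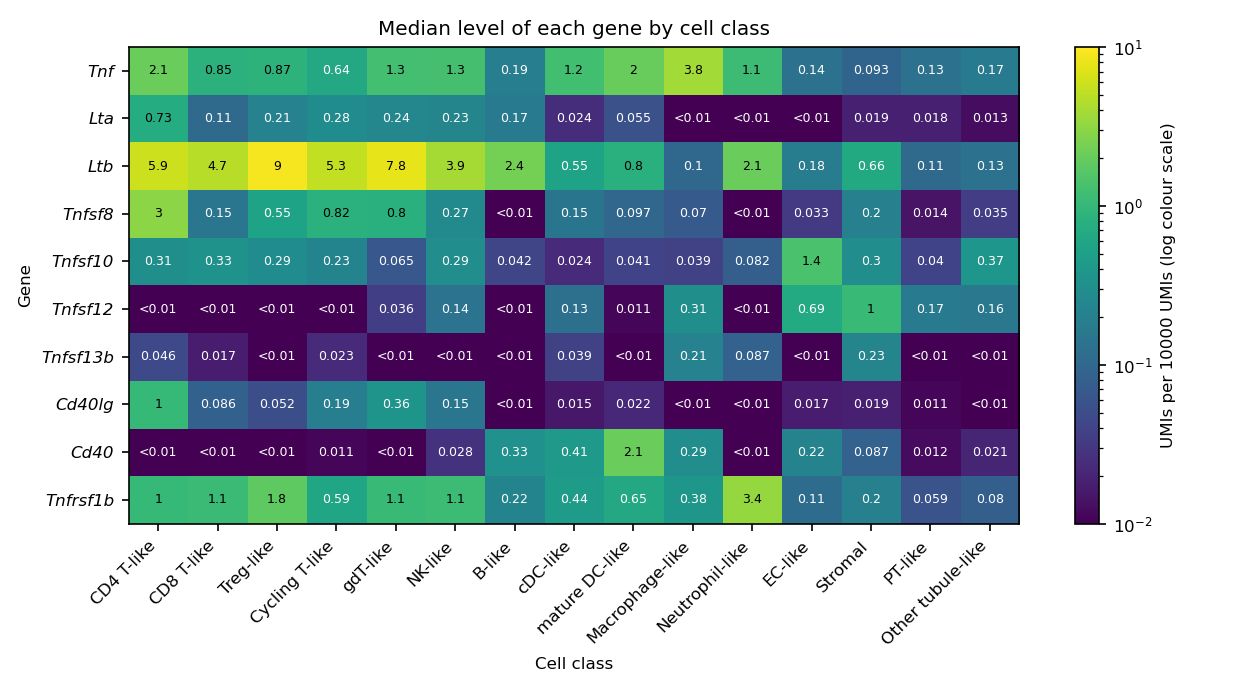
Median level of each gene (rows) in each cell class (columns) over the libraries with at least 20 cells of the class, in UMIs per 10000 UMIs on a log colour scale. The T-like classes carry Lta, Ltb, Tnfsf8 and Cd40lg, macrophage-like cells carry most Tnf per UMI, and EC-like cells carry Tnfsf10. Stromal cells carry Tnfsf12, in both the Col3a1-led and Ren1-led clusters, and Tnfsf13b, which lies with the Col3a1-led cluster.

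Tnf encodes TNF, the cytokine that gives the family its name and signals through the receptors Tnfrsf1a and Tnfrsf1b. Its level in macrophage-like cells was 3.81, 5.81, 5.02, 1.89 and 1.5 per 10000 in the 5 libraries. Both AKI libraries lay above the control and both CKD libraries below it, and the groups did not overlap. CD4 T-like cells held 1.95, 2.07, 2.32, 2.08 and 1.87 per 10000, a narrow range in which AKI and CKD libraries overlapped. Mature DC-like cells, the DC that carry antigen to lymph nodes, held 1.88, 3.23, 1.85 and 2.19 in the AKI and CKD libraries, where at least 43 cells were present. PT-like cells (proximal tubule) held 0.0212 to 0.294. Macrophage-like cells contributed 52.1%, 54.2%, 57.9%, 39.4% and 28.4% of all Tnf UMIs in the kept cells, and T-like cells contributed 28.2%, 35.4%, 31.2%, 37.5% and 56.0%. In CKD 2, T-like cells thus held more of the Tnf RNA captured than macrophage-like cells did.

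The lymphotoxin genes lay with the lymphocytes. Lta encodes lymphotoxin alpha, which is secreted or joins lymphotoxin beta at the cell surface. In CD4 T-like cells its level was 0.30, 0.820, 0.728, 0.835 and 0.607 per 10000, so that the control lay below each injured library. T-like cells of all kinds held 77.6% to 93% of its UMIs in a library. Ltb encodes lymphotoxin beta, which anchors that complex and acts on the receptor Ltbr. Treg-like cells held 6.07, 8.05, 9.04, 12.4 and 10.9 per 10000, with the CKD libraries above the AKI libraries and the control lowest. In CD8 T-like cells Ltb was at 4.48, 4.23, 4.72, 6.72 and 6.55 and in CD4 T-like cells at 4.57, 5.54, 5.86, 7.55 and 7.51. Both CKD libraries lay above both AKI libraries in each of these classes. In gdT-like cells they lay below, at 4.25, 8.05, 9.60, 7.83 and 7.29, and in cycling T-like cells, at 3.13, 5.05, 6.50, 5.33 and 6.16, the groups overlapped. NK-like cells held 2.93 to 4.83 and B-like cells 1.87 to 3.65. Ltb was found in many more classes at a low level, among them PT-like cells at 0.0135, 0.108, 0.0382, 0.808 and 0.191.

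T cell markers were also counted outside T-like cells, and their part in these low levels was not tested. The summed level of 5 T cell marker genes in PT-like cells was 0.0694, 0.704, 0.398, 4.11 and 1.20 per 10000, against 31.0 to 40.5 in T-like cells. In NK-like cells the sum was 10.8, 21.8, 24.8, 17.5 and 20.7, and its part in their Ltb level was not tested. With each cell thinned to 1500 UMIs, an Ltb UMI was found in 46.3%, 46.5%, 50.5%, 55.9% and 57.8% of T-like cells and in 0.128%, 1.17%, 1.31%, 16.3% and 4.26% of PT-like cells. Macrophage-like cells gave 0.614%, 1.79%, 2.39%, 14.9% and 2.40%, below the share in PT-like cells in both CKD libraries and above it in the other 3. The median depths before thinning were 3324 to 5605 UMIs in T-like cells and 1865 to 4545 in PT-like cells. CKD 1 had the highest sum of T cell markers in PT-like cells of the 5 libraries.

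Tnfsf8 and Cd40lg marked the CD4 T-like cells. Tnfsf8 encodes the CD30 ligand, a costimulatory signal between lymphocytes. In CD4 T-like cells it was at 0.491, 3.04, 3.40, 2.79 and 3.2 per 10000, so that the single control library lay below the AKI and CKD libraries, which overlapped. CD8 T-like cells held 0.103 to 0.329. Cd40lg encodes the CD40 ligand, by which helper T cells activate B cells, DC and macrophages. It was at 1.35, 1.17, 1.02, 0.658 and 0.940 in CD4 T-like cells, highest in the control and lower in both CKD libraries than in both AKI libraries. In CD8 T-like cells Cd40lg was at 0.480 in the control and at 0.0496 to 0.0871 in the others. B-like cells held 0 Cd40lg UMIs among 1925999 UMIs of 661 cells. The level in T-like cells over all libraries was 0.378 per 10000, at least 24.3-fold higher than the 0.0156 to which 3 counts over all B-like cells would come.

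The ligands TRAIL, TWEAK and BAFF had their highest levels in cells that are not lymphocytes. Tnfsf10 encodes TRAIL, which can start cell death through the receptor Tnfrsf10b. EC-like cells held 2.74, 1.33, 1.37, 1.28 and 1.53 per 10000, and the control was above every injured library. Over all libraries Tnfsf10 was at 2.50 in the EC-like cluster led by Plvap, Kdr and Esm1 and at 0.547 to 1.11 in the others. That cluster held 945, 230, 249, 347 and 185 of the 1441, 428, 411, 860 and 292 EC-like cells, and its part in the difference was not tested. EC-like cells gave 64.1% of the Tnfsf10 UMIs in the control and 18.4% to 22.4% in the others, where the more numerous T-like cells gave 36.9%, 42.9%, 36.8% and 58.5%, against 6.82% in the control. Other tubule-like cells held 0.193, 0.453, 0.374, 0.330 and 0.456. This class joined the segments beyond the proximal tubule with 469 cells of an injured tubule cluster (Cldn1, Ncam1, Sox9) of no assigned segment, in which Tnfsf10 was at 0.0754 to 0.231. Tnfsf12 encodes TWEAK, which acts on tubules through the receptor Tnfrsf12a. Stromal cells held 1.08, 1.11, 1.04, 0.545 and 0.885, EC-like cells 0.706, 0.583, 0.690, 0.574 and 0.699, and macrophage-like cells 0.313, 0.567, 0.627, 0.213 and 0.202. The macrophage-like levels rank both AKI libraries above the control and both CKD libraries below it, as for Tnf. Tnfsf12 shares its locus with Tnfsf13 and a read-through gene of both, so its counts are uncertain. Tnfsf13b encodes BAFF, the survival factor of B cells. It was at 0.417, 0.213, 0.252, 0.0409 and 0.0506 in macrophage-like cells, highest in the control. In stromal cells, of which there were 46 to 327 in a library, it was at 0.127, 0.229, 0.695, 0.0764 and 0.920. Within them the Col3a1-led cluster held 0.410, 0.578, 1.43, 0.242 and 1.56 and the Ren1-led cluster 0 to 0.0587, so that BAFF lay with the collagen-expressing cells, high in 1 AKI and 1 CKD library. Tnfsf12 was at 0.483 to 1.56 in the Col3a1-led and 0.502 to 1.16 in the Ren1-led cluster. T-like cells gave 2.53%, 24.4%, 18%, 37.7% and 49.1% of the Tnfsf13b UMIs of a library and 0.203% to 3.39% of those of Tnfsf12.

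**Figure D2:**
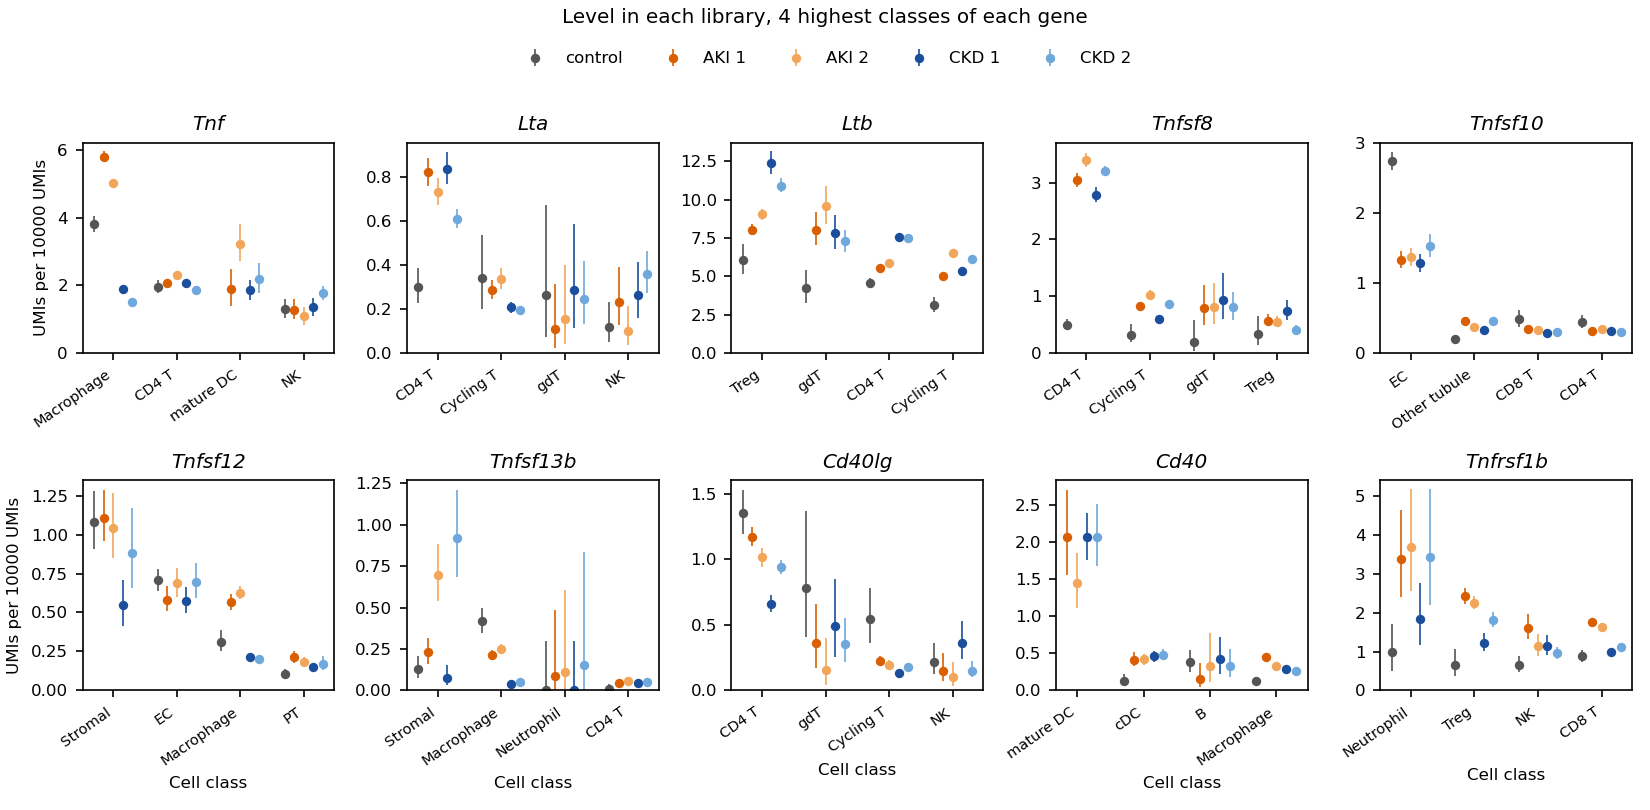
Level of each gene in each library (points, UMIs per 10000 UMIs, linear axis from 0) in its 4 highest classes, with exact 95% Poisson intervals that cover counting error only. Tnf and Tnfsf13b in macrophage-like cells lie lower in both CKD libraries than in both AKI libraries, and Ltb in Treg-like and CD4 T-like cells lies higher.

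Of the receptors, Cd40 is the partner of the CD40 ligand on antigen-presenting cells. Mature DC-like cells held 2.07, 1.45, 2.06 and 2.06 per 10000 in the AKI and CKD libraries. Conventional DC (cDC)-like cells held 0.127, 0.413, 0.415, 0.456 and 0.481, B-like cells 0.156 to 0.416 and macrophage-like cells 0.126, 0.455, 0.331, 0.293 and 0.261. In both cDC-like and macrophage-like cells the control lay below every injured library. EC-like cells gave 52.7% of the Cd40 UMIs in the control and 5.06% to 9.10% in the others. Tnfrsf1b encodes the second TNF receptor, known for its role on regulatory and activated T cells. Neutrophil-like cells held 0.977, 3.39, 3.70, 1.84 and 3.45, Treg-like cells 0.651, 2.43, 2.26, 1.23 and 1.82 and CD8 T-like cells 0.885, 1.77, 1.62, 0.987 and 1.11. In Treg-like and CD8 T-like cells the AKI libraries were the highest, the CKD libraries came next and the control was the lowest.

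**Figure D3:**
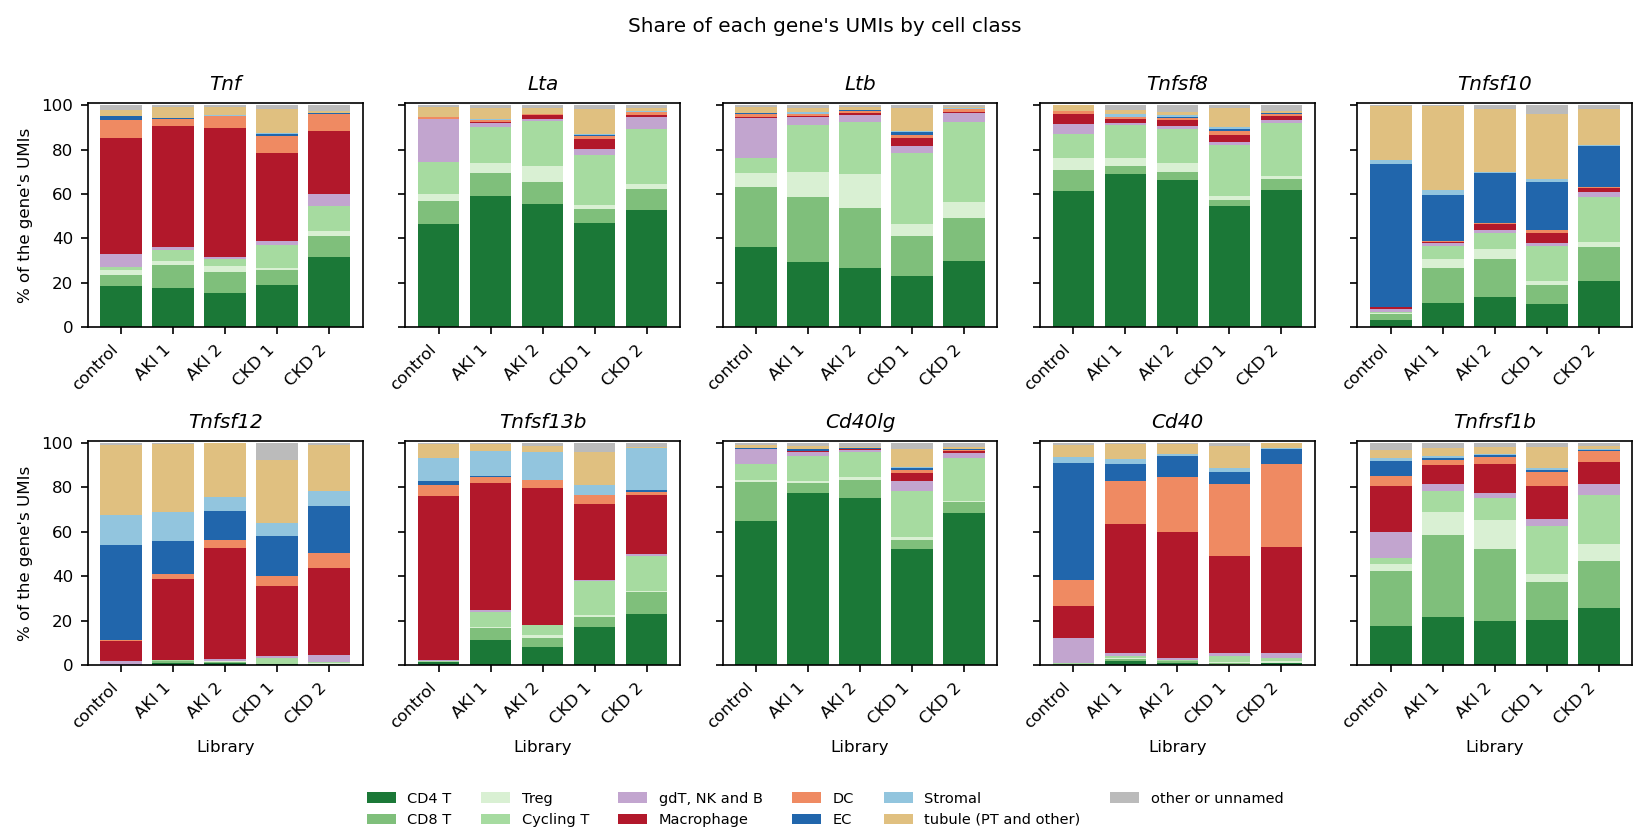
Share of each gene's UMIs (bars, % of its UMIs in the kept cells of a library) contributed by each group of classes. Macrophage-like cells give 52.1% to 57.9% of Tnf UMIs in the control and AKI libraries and 28.4% to 39.4% in the CKD libraries, and T-like cells give 77.6% to 93% of Lta UMIs.

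Further receptors of these ligands were found in stromal, endothelial, tubule and immune classes. Tnfrsf1a, the widely expressed TNF receptor, had median levels of 2.25 per 10000 in EC-like, 1.96 in neutrophil-like and 1.73 in stromal cells. Ltbr was at 0.651 in EC-like and 0.549 in stromal cells, and Tnfrsf10b, the TRAIL receptor, at 0.278 in EC-like cells. Tnfrsf8 (CD30) was low, at 0.0375 in cycling T-like and 0.0367 in Treg-like cells. Tnfrsf13c, the BAFF receptor, was at 1.33, 1.31, 0.927, 1.79 and 1.67 in B-like cells. Tnfrsf12a, the TWEAK receptor, was at 0.189, 1.54, 1.60, 1.48 and 0.996 in PT-like cells and at 0.499, 2.30, 2.55, 1.19 and 1.43 in other tubule-like cells. In both tubule classes the control was the lowest library. In other tubule-like cells Tnfrsf12a differed between CKD and AKI by -0.79 (log2, SE 0.115), which did not pass edgeR's quasi-likelihood test (adjusted p = 0.429).

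Classes were compared within the 5 libraries on summed counts, with library as a block and Benjamini-Hochberg adjustment over all genes. T-like and macrophage-like cells differed in all 10 genes by edgeR's quasi-likelihood test at an adjusted p of 0.05, beside 57.7% of all genes tested. T-like cells were higher for Lta (log2 difference 4.58), Ltb (5.35), Tnfsf8 (3.93), Tnfsf10 (2.90), Cd40lg (5.50) and Tnfrsf1b (1.18). Macrophage-like cells were higher for Tnf (-1.55, adjusted p = 0.00272 by edgeR's quasi-likelihood test), Tnfsf12 (-5.47), Tnfsf13b (-2.37) and Cd40 (-5.20). B-like and T-like cells differed in 7 of 8 genes tested, beside 35.8% of all genes: Cd40 was 5.33 higher on the log2 scale in B-like cells, and Tnf, Ltb, Tnfsf8, Tnfsf10, Cd40lg and Tnfrsf1b were lower. Lta differed by -0.57, with an adjusted p of 0.107 in edgeR's quasi-likelihood test. DC-like and macrophage-like cells differed in 6 of 8 genes, beside 31.4% of all genes. Ltb (2.02), Tnfsf8 (0.94) and Cd40 (1.06) were higher in DC-like cells, and Tnf (-1.14), Tnfsf12 (-1.44) and Tnfsf13b (-2.16) were lower. The call of Tnfsf8 was lost under 4 of 10 alternatives (log2 down to 0.28 and adjusted p up to 0.543 without the correction by library, edgeR), among them without AKI 1 and without CKD 2. That of Tnf was lost under 3, without the control, AKI 1 or AKI 2 (adjusted p of 0.0523 to 0.0789, edgeR). The T cell genes in the other classes were not corrected for the T cell markers counted there.

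From AKI to CKD, macrophage-like cells had lower levels of 5 of the 10 genes, and none was called higher. These were the ligands Tnf, Tnfsf12 and Tnfsf13b and both receptors, Cd40 and Tnfrsf1b. Macrophage-like cells were also the class with most changes at large, since 30.7% of all genes tested there were called in either direction. The median log2 fold change was -0.45 over the 10 genes and 0.02 over all genes tested. With 2 against 2 libraries an exact two-sided permutation test of a single gene could not go below 0.333, so the calls rest on the spread that edgeR's quasi-likelihood fit shares across genes.

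The mean Tnf level in macrophage-like cells was 5.41 ± 0.557 per 10000 in AKI and 1.70 ± 0.277 in CKD (SD, n = 2 each). It fell by 1.85 on the log2 scale (SE 0.143, adjusted p = 6.4e-04 in edgeR's quasi-likelihood test), a 3.61-fold lower level. Tnfsf12 fell by 1.70 (SE 0.114, adjusted p = 4.7e-04 in the same edgeR test) from 0.597 ± 0.0424 to 0.207 ± 0.00785. Tnfsf13b fell by 2.51 (SE 0.198, adjusted p = 7.0e-04, edgeR), a 5.70-fold lower level, from 0.232 ± 0.0271 to 0.0458 ± 0.00684. Both CKD libraries lay below both AKI libraries for each of these ligands. Cd40 fell by 0.68 (SE 0.179, adjusted p = 0.0330, edgeR) from 0.393 ± 0.0873 to 0.277 ± 0.0226, and Tnfrsf1b fell by 0.70 (SE 0.117, adjusted p = 0.00685, edgeR) from 0.487 ± 0.010 to 0.337 ± 0.0155. Tnf, Tnfsf12 and Tnfsf13b were called under all 11 alternatives, Cd40 under 7 and Tnfrsf1b under 6. The sizes were smallest with doublets kept, at -0.90 for Tnf, -1.04 for Tnfsf12 and -1.55 for Tnfsf13b on the log2 scale. Both receptors lost the call without AKI 1, with doublets kept and without the correction by library, and Tnfrsf1b also without AKI 2. The 5 other ligands did not pass the test. Among them Ltb differed by 1.55 (SE 0.624, adjusted p = 0.113, edgeR), with CKD 1 alone at 0.525 and the other AKI and CKD libraries at 0.0913 to 0.118.

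**Figure D4:**
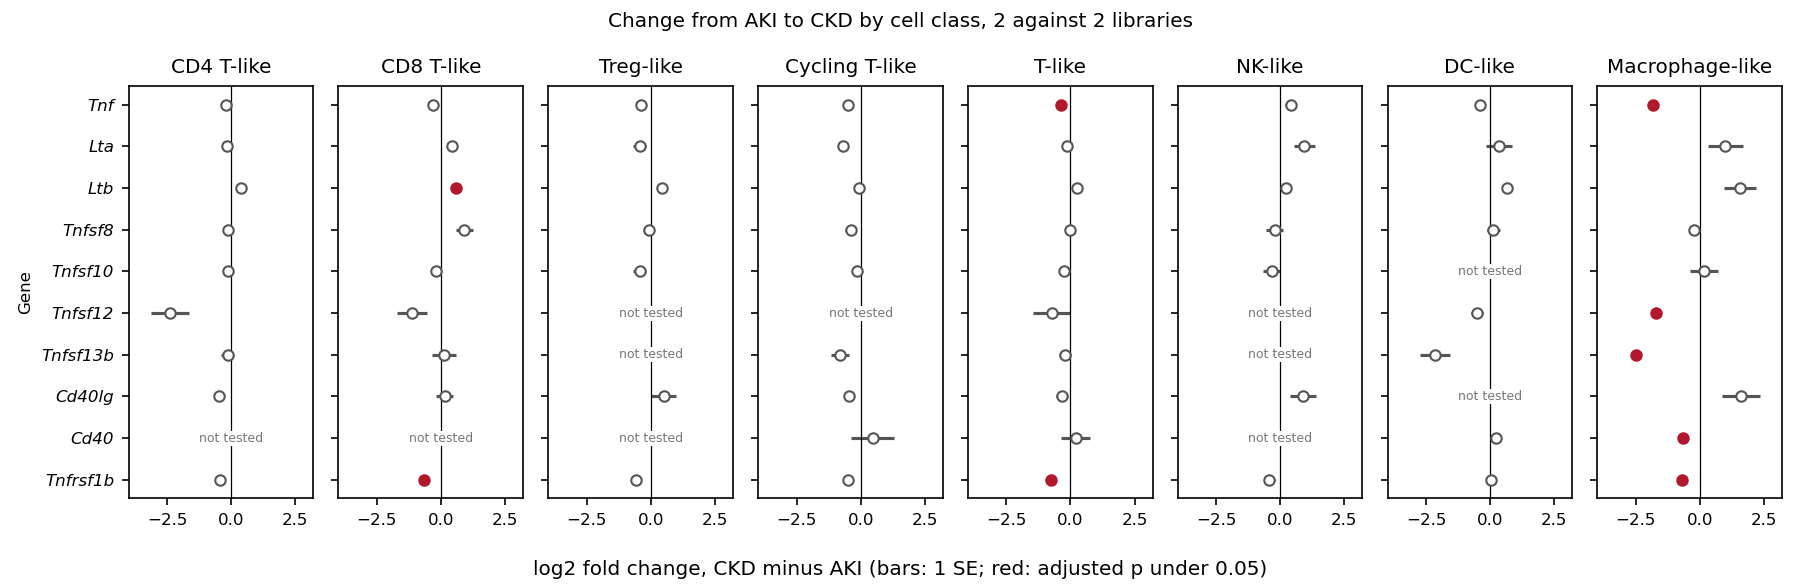
Log2 fold change from AKI to CKD (x axis, CKD minus AKI, with bars of 1 SE) of each gene in 8 cell classes, from 2 against 2 libraries. Red points passed an adjusted p of 0.05: 5 genes in macrophage-like cells, all to the left of 0, and 2 each in T-like and CD8 T-like cells.

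The makeup of the macrophage-like class moved with these differences. Clusters led by Ctsk, which encodes cathepsin K, with Mmp9 and Acp5, made up 12.1%, 10.4%, 5.37%, 34.7% and 27.5% of macrophage-like cells, and 1 of these clusters was found only in CKD 1. The cluster led by Ccl8 made up 65.1%, 49.4%, 48.8%, 39% and 27.8%. The cluster with Trem2 and Il1a made up 15.3% and 17.7% in AKI and 2.16% and 3.98% in CKD, and the cluster led by Chil3, a gene also known from monocytes, 3.97% and 4.66% in AKI and 14.3% and 12.8% in CKD. No cluster met the marker rule for monocytes, so such cells could lie within this class. Within the Ccl8-led cluster Tnf was at 3.85, 7.08, 5.82, 1.89 and 3.94 per 10000, and in the Ctsk- and Mmp9-led cluster at 0.477, 0.555, 1.5, 0.318 and 0.309. In the cluster with Trem2 and Il1a it was at 4.97, 4.52, 0.992 and 1.73 in the AKI and CKD libraries, and in the cycling cluster at 2.91, 4.62, 1.04 and 1.08. In each of these clusters both CKD libraries lay below both AKI libraries. The cluster led by Chil3 differed, at 4.26, 3.04, 5.30 and 3.57, and so did the interferon cluster with Ifnb1 and Ifit2, at 4.82, 3.03, 4.32, 4.45 and 3.65, where the groups overlapped. The Ctsk-led cluster found only in CKD 1 held 0.959, with no AKI cells to compare.

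With all clusters, 5 of the 10 genes were called in macrophage-like cells beside 30.7% of all genes. Without the Ctsk-led clusters, 3 of the 10 genes were called, for which the share of all genes is not given here. Tnf then fell by 1.17, Tnfsf12 by 1.18 and Tnfsf13b by 1.77 on the log2 scale, and Cd40 (-0.42, adjusted p = 0.152) and Tnfrsf1b (-0.20, adjusted p = 0.335) did not pass edgeR's quasi-likelihood test. The summed level of the macrophage marker genes C1qa, C1qb, C1qc, Adgre1 and Csf1r also moved with the groups, at 109, 131, 134, 36.8 and 39 per 10000 in macrophage-like cells, and its part in the lower levels was not tested. The sum of the T cell markers in the same cells was 0.0970, 0.601, 0.492, 2.79 and 0.685.

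**Figure D5:**
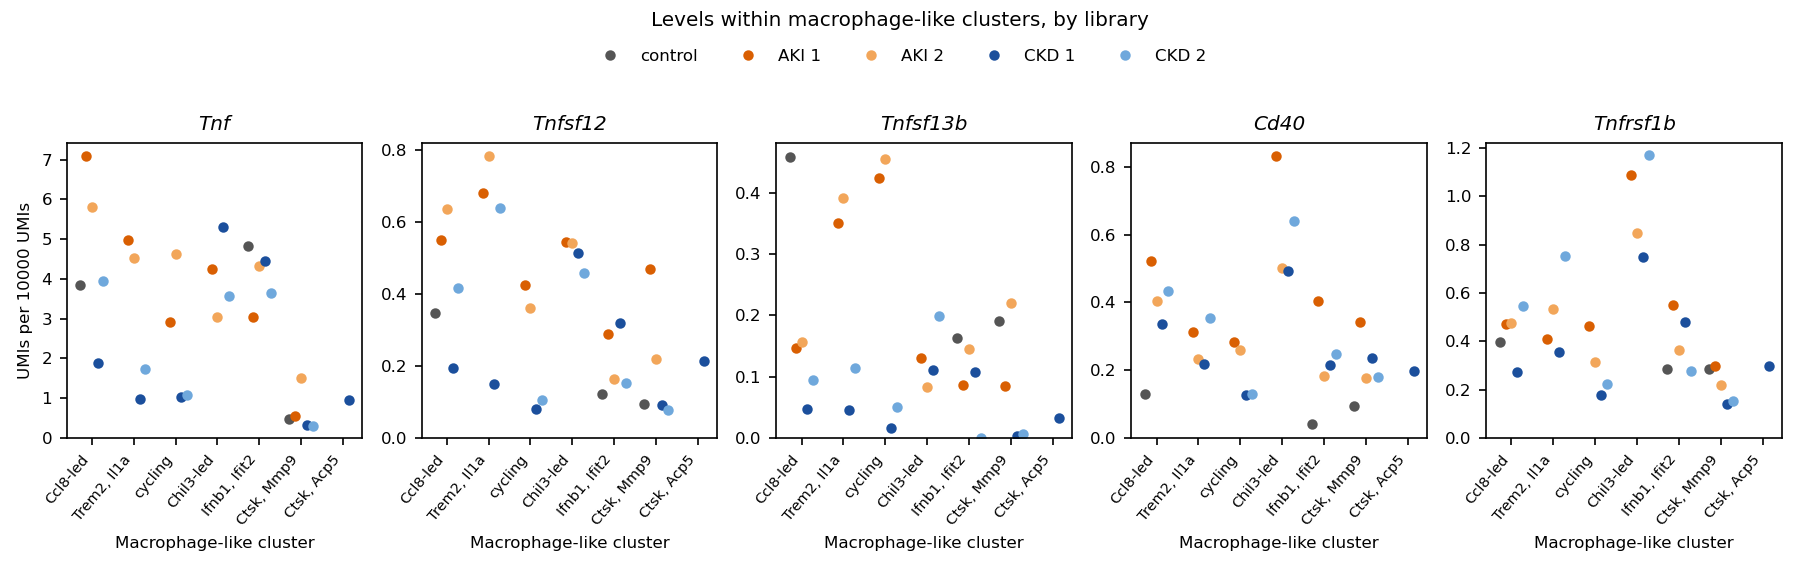
Level of the 5 genes called in macrophage-like cells (UMIs per 10000 UMIs, linear axis from 0) in each macrophage-like cluster with at least 20 cells in a library, 1 point a library. Tnf lies lower in CKD than in AKI in the Ccl8-led, Trem2 and Il1a, cycling and Ctsk-led clusters, and the Chil3-led and Ifnb1 clusters overlap between groups.

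In T-like cells, Tnf and Tnfrsf1b were lower in CKD and no gene was called higher, so 2 of 10 were called beside 9.60% of all genes tested, of which 993 were higher and 331 lower. Tnf was at 1.33, 1.22, 1.33, 1.02 and 0.979 per 10000 and fell by 0.36 on the log2 scale (SE 0.0735, adjusted p = 0.0464, edgeR's quasi-likelihood test). Tnfrsf1b was at 0.594, 1.48, 1.39, 0.790 and 0.888 and fell by 0.77 (SE 0.107, adjusted p = 0.0242, edgeR). The call of Tnf was lost without AKI 1 (log2 -0.41, adjusted p = 0.284, edgeR) and without AKI 2 (-0.29, 0.364), with doublets kept (0.0530) and without the correction by library (0.0608). That of Tnfrsf1b was lost without AKI 1 and without AKI 2 (adjusted p = 0.272 and 0.256, edgeR). Cycling T-like cells, in which Tnf was at 0.475 to 0.764, made up 11.4%, 13.2%, 12.5%, 37% and 20.7% of T-like cells, and the part of this shift in the differences was not tested. The macrophage marker genes in T-like cells summed to 0.206, 0.935, 1.35, 0.562 and 0.225 per 10000, and their part in the fall of Tnf was not tested. CD8 T-like cells had 2 of 9 genes called beside 2.37% of all genes. Ltb rose by 0.58 (SE 0.0976, adjusted p = 0.0394, edgeR), from 4.47 ± 0.350 to 6.64 ± 0.123 (SD, n = 2 each), and Tnfrsf1b fell by 0.68 (SE 0.113, adjusted p = 0.0380, edgeR). These calls in CD8 T-like cells were also lost without AKI 1 and without AKI 2, and that of Ltb also without the correction by library.

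In the other 14 classes tested, edgeR's quasi-likelihood test called 0 of the genes at an adjusted p of 0.05, while 27 values of gene and class had an unadjusted p under 0.05 and DESeq2 called 4. With the replicate number as a block edgeR called 4, in 2 classes, and without the filter on low counts 18, in 9 classes. The shares of all genes called with DESeq2 and without the filter are not given here. In the main edgeR test the share of all genes called in these classes was 1.87% in Treg-like, 0.479% in cDC-like, 0.0907% in B-like, 0.0754% in PT-like, 0.0731% in NK-like, 0.0715% in DC-like and 0.0520% in CD4 T-like cells, and 0% in the others. In CD4 T-like cells Ltb differed by 0.37 (adjusted p = 0.219, edgeR), Tnfrsf1b by -0.43 (0.182) and Cd40lg by -0.47 (0.394). In Treg-like cells Ltb differed by 0.43 (adjusted p = 0.0610, edgeR) and Tnfrsf1b by -0.59 (0.10). In these 2 classes Ltb and Tnfrsf1b had the same sign as the calls in CD8 T-like cells, while Ltb was 1.23-fold lower in CKD in gdT-like and 1.04-fold lower in cycling T-like cells, neither called, and whether the classes differed was not tested.

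Whether macrophage-like cells changed more than T-like cells was tested by an interaction term with library as a block, which called 14.6% of all genes. The change in macrophage-like cells was below that in T-like cells for Tnf by -1.37 (log2, SE 0.193, adjusted p = 0.00808, edgeR's quasi-likelihood test) and for Tnfsf13b by -2.17 (SE 0.218, adjusted p = 0.00363, edgeR). The other 8 genes did not pass, among them Tnfsf12 (-0.70, adjusted p = 0.448, edgeR) and Tnfrsf1b (0.20, 0.372).

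Other genes of the pathway were taken from a list of 57 ligands, receptors, adaptors and NF-kappaB genes. In T-like cells 6 of the 54 tested were called, all lower in CKD. Of all genes 9.60% were called there, 993 higher and 331 lower. These included Fasl, the ligand by which cytotoxic cells kill (-0.98, adjusted p = 0.0150, edgeR), the costimulatory receptor Tnfrsf9 (-0.65), the kinase Map3k14 of the alternative NF-kappaB route (-0.63) and the inhibitor Tnfaip3 (-0.57). The median over the list was -0.03 and over all genes -0.02. In CD8 T-like cells Fasl fell by 0.71 and the NF-kappaB subunit Rel rose by 0.45, of 48 tested, beside 2.37% of all genes. Macrophage-like cells had 21 of 51 called, 15 lower and 6 higher, with a median of -0.16 against 0.02 over all genes. Of all 12692 genes tested there, 30.7% were called, 2045 lower and 1855 higher. Tnfsf13 (APRIL, a further ligand of B cells) was at 0.0323, 0.517, 0.523, 0.123 and 0.123 per 10000 and fell by 2.25, and Tnfsf15 fell by 2.66. Tnfsf4 (the OX40 ligand) rose by 3.75 on 48 UMIs and Tnfsf11 (RANKL) by 2.00 on 91 UMIs. Tnfsf11 was also among the leading genes of a CD4 T-like cluster, and the T cell markers in macrophage-like cells summed to 0.601 and 0.492 in AKI and to 2.79 and 0.685 in CKD, whose part in this rise was not tested. By role, 3 of 5 NF-kappaB subunits and 4 of 5 genes of shedding and message decay were called, all lower, as was 1 of 5 NF-kappaB inhibitors. Of the other ligands 4 of 7 were called (2 higher), of the receptors 4 of 12 (2 higher) and of the signalling genes 5 of 17 (2 higher). Zfp36, whose protein binds AU-rich sites like those of Tnf printed above, was at 20, 17.7, 18.7, 6.58 and 9.08 per 10000 and fell by 1.38 (adjusted p = 0.00310, edgeR). It was named after its values were seen. Single calls in other classes were Tnfsf4 in Treg-like cells (3.62 higher, on 20 UMIs), 1 of 44 tested beside 1.87% of all genes, and Tnfrsf4 in cDC-like cells (1.66 higher, on 156 UMIs), 1 of 47 beside 0.479%. Tnfrsf4 was at 0.0465, 0.0574, 0.189 and 0.164 per 10000 in cDC-like cells of the AKI and CKD libraries and at 2.15 to 3.01 in T-like cells. The T cell markers in cDC-like cells summed to 0.578, 0.847, 2.49 and 1.66, and their part in this call was not tested.

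The genes whose levels ran most like these were found across 14 classes in 5 libraries, 70 points that share libraries and cells, among 15914 genes, and the correlations are a description only. Tnf ran with Cyth4 (Pearson r 0.87), Arrb2 and Laptm5 (0.85 each). Ltb ran with Acap1 (0.94), Sept1 and Ptprcap (0.93 each), and Lta with Rasgrp1, Slain1 and Ptprcap (0.86 each). Tnfsf8 ran with Tnfsf11, Cd247 and Crmp1 (0.85 each), and Cd40lg with Podnl1 (0.87), Tcf7 (0.86) and Cxcr6 (0.85). Tnfsf10 ran with Hdac7 (0.84), Utrn (0.82) and Zfpm1 (0.81). For Tnfsf12 the nearest genes were Tnfsf13 (0.92), its neighbour in the genome, Pdgfb (0.89) and Adam15 (0.88). For Tnfsf13b they were Olfml3 (0.79), Slco2b1 and Gm10134 (0.78 each). For Cd40 they were Plekho1 (0.88), BC028528 (0.85) and Mef2c (0.84), and for Tnfrsf1b Samsn1 (0.90), Selplg and Arhgap9 (0.89 each). Among the 10 genes themselves, r was 0.82 for Lta with Ltb, 0.79 for Lta with Cd40lg, 0.75 for Tnfsf8 with Cd40lg, 0.35 for Tnf with Lta and -0.74 for Ltb with Tnfsf12.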

How the data were processed

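The authors made whole-number UMI counts per gene and barcode with Cell Ranger 7.2.0 on GRCm39, per the submitters' processing notes, and deposited 1 filtered matrix a library. The headers of the AKI and CKD matrices name an earlier version of Cell Ranger and the control's gene list names mm10, so neither the version nor the build of the counts is settled. Barcodes with at least 200 genes and at most 30% mitochondrial UMIs were kept, and likely doublets were removed by a simulated-doublet score at 0.8% per 1000 cells (6325 cells). Counts were log-normalised, reduced to 3000 variable genes without the 10 genes and to 40 components corrected by library, and clustered with Leiden (leidenalg 0.10.2, resolution 1.5). Clusters were named from fixed markers when at least 3 were detected. Single cells were not treated as replicates: counts were summed by class and library, in classes of at least 20 cells in each library used.

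CKD and AKI were compared with edgeR 4.0.16 (R 4.3.3), glmQLFit and glmQLFTest with TMM scaling and filterByExpr, in the 4 AKI and CKD libraries. Classes were compared in all 5 libraries with library as a block. Benjamini-Hochberg adjustment ran over all genes tested and calls were made at 0.05. Tests were tried on simulated data: of genes changed 4-fold, 94% were recovered in T-like cells (13798 genes) and 91% in macrophage-like cells (12692 genes), and of genes changed 2-fold 39% and 36%. Each class had a single simulation, with 100 genes changed 4-fold and 100 changed 2-fold together. Its false calls numbered 6 in T-like and 8 in macrophage-like cells. The members and lists were chosen with earlier results of these data known. All 10 genes are given in every class, with counts for the pathway list. Up to 4 called genes of that list are given per class, with Zfp36 in macrophage-like cells added after its values were seen. Also given are receptors of the ligands, though not every receptor of each, and the 3 genes most alike in level (log2 of UMIs per 10000 plus 0.05). The alternatives were DESeq2 1.42.0, no filter, the replicate block, each library left out, a 15% mitochondrial limit, doublets kept, no correction by library and no shared barcodes. The interaction test, the fit without Ctsk-led clusters, the class comparison without shared barcodes, the crossed numbers and the leading class without the control were added after the data were seen. Promoters came from RefSeq (GRCm38.p6) and 3′ untranslated regions from GENCODE on GRCm39. Intervals cover counting error only, and the UMI totals of 54839682 to 78651563 in the kept cells of a library set the depth.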

Additional observations from a re-analysis of the deposited data

Results flagged for a closer look

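The change from AKI to CKD differed between macrophage-like and T-like cells for Tnf, by -1.37 on the log2 scale (edgeR's quasi-likelihood test of the interaction, adjusted p = 0.00808), since Tnf fell by 1.85 in macrophage-like cells and by 0.36 in T-like cells. For Tnfsf13b the change differed by -2.17 (adjusted p = 0.00363, edgeR), with a fall of 2.51 in macrophage-like cells and no call in T-like cells. Both CKD libraries were below both AKI libraries in macrophage-like cells for both genes. The Ctsk-led clusters, which made up 34.7% and 27.5% of macrophage-like cells in CKD and 10.4% and 5.37% in AKI, were included in this test.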

How the results depend on the processing

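No gene changed direction between CKD and AKI, where it was called, under any alternative, and 1148 values of gene, class and setting kept their side of the threshold, 70 gained a call and 20 lost one. Between classes 250 kept it, 2 gained and 7 lost. The number of the 10 genes called moved as follows, and the cause was not tested. The shares of all genes called in these fits are not given here. The counts therefore do not show whether these genes moved more than others. With DESeq2, 1 gene was called in each of the CD4 T-, Treg-, cycling T- and PT-like classes. Without the filter on low counts, 3 were called in CD4 T- and cycling T-like, 2 in Treg-, DC-, cDC-, EC- and PT-like and 1 in stromal and other tubule-like cells. With doublets kept, 1 was called in T-like cells. Without the correction by library, 1 was called in T-like, 1 in CD8 T-like and 3 in macrophage-like cells. Without the Ctsk-led clusters 3 were called in macrophage-like cells. With each library left out in turn, the lone library of its group being assumed to vary like the others, the count ran from 0 to 5 in T-like and other tubule-like, 0 to 4 in CD4 T-, CD8 T-, cycling T- and PT-like, 0 to 3 in EC-like, 0 to 2 in Treg-like, 0 to 1 in DC- and cDC-like and 3 to 8 in macrophage-like cells. The 3 in macrophage-like cells came without AKI 1 and the 8 without CKD 2, and the 0 in T-like and CD8 T-like cells without AKI 1 or AKI 2. Without CKD 1 and without CKD 2, T-like cells had 4 and 5 genes called, CD4 T-like cells 4 and 3. T-like and macrophage-like cells differed in all 10 genes in every such fit. Of 600 levels, 59 moved by more than the spread, 39 of them with doublets kept, where Tnfsf13b was highest in macrophage-like cells.

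Replicates carry the numbers 1 and 2 in AKI and CKD, but with 2 pairs the numbers are not taken to pair the libraries. Deviations of libraries with the same number correlated from -0.11 to 0.25 across genes. With the replicate block, 2 genes were called in cDC-like (Ltb and Tnfsf13b) and 2 in PT-like cells (Ltb and Tnfsf8), beside 2.86% and 3.21% of all genes tested, and the calls in T-like (2), CD8 T-like (2) and macrophage-like cells (5) kept their number. Crossing the numbers in other tubule-like cells called 0 of the 10 genes and 16 of all genes.

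In data simulated for T-like and macrophage-like cells at their libraries' depth, with a single common spread for all genes, 36% to 39% of 2-fold changes were recovered. Genes of larger spread and the other classes were not simulated, and a missing call does not show that levels were equal. The control had no replicate. Named classes were rebuilt from the counts and rest on the markers chosen.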

Other observations

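The 1991 cells that could not be named also held some of these genes. They were a mixed pool: 1843 came from 1 cluster led by Ttn, Bcl11b, Cd6 and Tnfsf8 itself, with a median depth 0.287 times that of its libraries, and the others from 4 small clusters with other leading genes, such as Slc14a2 or Ctsk. Their Tnfsf8 level was 0, 1.77, 2.75, 0.197 and 2.74 per 10000 in the control, AKI 1, AKI 2, CKD 1 and CKD 2, and their Tnf level was 0.243, 1.73, 2.24, 0.498 and 2.61. The control and CKD 1 were the low libraries for both, and the makeup of the pool by library was not tested. Cd70, the ligand of the costimulatory receptor CD27, was highest in mature DC-like cells, at a median of 0.677 per 10000 over 4 libraries, with no overlap with the next class. Cflar, an inhibitor of caspase-8, was also highest there, at a median of 3.30 per 10000.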
